A study of Homo sapiens with 18 samples.

Results

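The genes described here are 8 genes of sterol control and cholesterol synthesis: SREBF1, SREBF2, INSIG1, HMGCS1, IDI1, FDFT1, SQLE and LSS. They were chosen by name, as the rows that carry the Entrez gene ID of these symbols, and are 8 of the 23604 entries listed over the RNA-Seq libraries. All 8 passed the filter on low counts. The study used MCF10A-ErSrc cells, an established human breast epithelial line that carries a v-Src kinase fused to the ligand-binding part of the oestrogen receptor, so that tamoxifen switches the kinase on and the cells become transformed. Untransformed cells (NT) and tamoxifen-transformed cells (TAM) each received the solvent DMSO or triptolide (TPL) at 1 dose, a compound that binds the XPB subunit of the transcription factor TFIIH, for 4 h. All groups are therefore cultures of 1 line with the same transgene, and tamoxifen and transformation cannot be told apart. Each of the 4 groups had 2 RNA-Seq libraries, described as independent biological replicates, and 1 list of RNA polymerase II (RNAPII) peaks from chromatin immunoprecipitation (ChIP-Seq).

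Cholesterol is made from acetyl-CoA through the mevalonate pathway, and cells control it by feedback on transcription. The precursors of the sterol regulatory element-binding proteins, encoded by SREBF1 and SREBF2, are held in the endoplasmic reticulum by INSIG proteins when sterols are plentiful. When sterols are scarce they move to the Golgi, are cut, and the released part enters the nucleus and switches on the enzymes of cholesterol and fatty acid synthesis together with INSIG1 itself.

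The libraries held 7461309 to 8349448 expected counts each. The 8 breast epithelial marker genes were all at 1 FPKM (fragments per kilobase of transcript, scaled to library size) or more on average in NT and TAM cells, and 7 of 8 with TPL, where TP63 fell to between 0.28 and 0.89 FPKM. Their summed level differed between the groups, from 16953 to 18814 FPKM in NT cells, 10562 to 13396 in NT cells with TPL, 7665 to 8045 in TAM cells and 3946 to 4313 in TAM cells with TPL. The sums rest mostly on KRT5, KRT6A and KRT17, and the markers did not move as a set. With DMSO, KRT5, KRT14, KRT17 and CDH1 had lower means in TAM than in NT cells. KRT6A, KRT18, EPCAM and TP63 had higher ones. Of 8 markers of fibroblasts, endothelium and blood, 6 had a row and summed to between 1.59 and 9.25 FPKM in each library. The part of these differences in the results below was not tested. The NT libraries with TPL differed most from each other, with a mean chi-square per gene of 33.1 between them against 9.94 to 14.6 for the other pairs.

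The bases just upstream of the transcription start site (TSS) were searched for motifs known in sterol-controlled promoters. In the 250 bases upstream of the TSS of the canonical transcript (GENCODE on GRCh37, the hg19 build of the peak lists), the NF-Y motif CCAAT was found on either strand in 7 of the 8 genes, against 34.2% of 19881 protein-coding promoters, and was not found for SREBF1. The SP1 motif GGGCGG was found in 8 of 8, against 59.1% of promoters. The sterol regulatory element written as TCACNCCAC was found in SREBF2 alone among the 8, starting 133 bases upstream of its TSS, against 0.966% of promoters. The E-box CACGTG was found in INSIG1 alone, against 7.87% of promoters, and the TATA box TATAAA in INSIG1 and HMGCS1, against 9.26%. These letters are a description of 1 window and not a measured binding site.

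The windows of 5 of the genes are shown 5′ to 3′ on the strand of the gene. SREBF1 lacks the CCAAT letters. The others shown carry them, as do FDFT1, SQLE and LSS, whose windows are not shown. Capitals mark the sterol element, the E-box and the NF-Y letters, which read ATTGG where the match is on the other strand. The windows are chr17:17740301-17740550 on the minus strand for SREBF1, chr22:42228859-42229108 on the plus strand for SREBF2, chr7:155089338-155089587 on the plus strand for INSIG1, chr5:43313515-43313764 on the minus strand for HMGCS1 and chr10:1095060-1095309 on the minus strand for IDI1. Their GC content was 71.2%, 67.2%, 78.4%, 66.0% and 69.2% in the same order, beside a median of 63.2% over all promoters.
SREBF1: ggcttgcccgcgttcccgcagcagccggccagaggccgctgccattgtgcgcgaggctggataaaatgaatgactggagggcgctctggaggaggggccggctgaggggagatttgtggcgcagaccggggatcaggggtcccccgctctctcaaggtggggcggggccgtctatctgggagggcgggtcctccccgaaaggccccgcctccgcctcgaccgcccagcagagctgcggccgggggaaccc
SREBF2: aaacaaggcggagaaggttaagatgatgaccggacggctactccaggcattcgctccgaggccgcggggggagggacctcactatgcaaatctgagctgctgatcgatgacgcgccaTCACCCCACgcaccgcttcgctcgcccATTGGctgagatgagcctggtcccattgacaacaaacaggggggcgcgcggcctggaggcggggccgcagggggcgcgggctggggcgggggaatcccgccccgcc
INSIG1: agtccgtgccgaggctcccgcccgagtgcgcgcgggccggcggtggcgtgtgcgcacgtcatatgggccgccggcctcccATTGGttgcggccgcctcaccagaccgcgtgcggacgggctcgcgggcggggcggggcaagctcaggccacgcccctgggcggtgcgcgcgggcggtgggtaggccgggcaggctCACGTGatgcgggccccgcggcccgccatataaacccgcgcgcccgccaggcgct
HMGCS1: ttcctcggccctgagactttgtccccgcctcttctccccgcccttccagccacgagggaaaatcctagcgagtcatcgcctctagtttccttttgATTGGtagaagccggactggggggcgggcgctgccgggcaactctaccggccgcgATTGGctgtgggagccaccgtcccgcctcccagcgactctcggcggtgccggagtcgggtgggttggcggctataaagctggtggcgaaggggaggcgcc
IDI1: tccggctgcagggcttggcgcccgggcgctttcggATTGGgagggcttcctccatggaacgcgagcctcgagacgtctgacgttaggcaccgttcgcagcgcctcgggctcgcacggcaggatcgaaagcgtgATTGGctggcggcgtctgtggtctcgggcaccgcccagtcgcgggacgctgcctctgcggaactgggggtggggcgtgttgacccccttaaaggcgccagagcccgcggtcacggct

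TPL changed most of the 8 genes in NT cells, and in both directions. Of the 8, 4 were lower (SREBF1, INSIG1, HMGCS1, SQLE) and 3 were higher (SREBF2, IDI1, LSS), where 19.8% of the 16948 genes tested were lower and 17.2% were higher. In TAM cells 3 were lower (SREBF1, HMGCS1, SQLE) and 1 was higher (IDI1), where 18.6% of all genes were lower and 14.3% higher. Fold changes, standard errors (SE) and p-values, adjusted by Benjamini-Hochberg over all genes tested, were fitted by quasi-likelihood in edgeR, and a gene passed at an adjusted p of at most 0.05. The median log2 fold change of the 8 was -0.86 in NT cells and -0.04 in TAM cells, beside 0.09 and 0.05 over all genes. By library rather than by test, 5 of the 8 were lower with TPL in both NT libraries than in both untreated ones and 3 were higher, where 32.7% and 36.4% of all genes were, and in TAM cells 3 were lower and 3 higher, where 34.7% and 40.0% were. A fold change here compares shares of a library, and in bulk samples fewer cells of a type and less RNA per cell cannot be told apart.

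**Figure D1:**
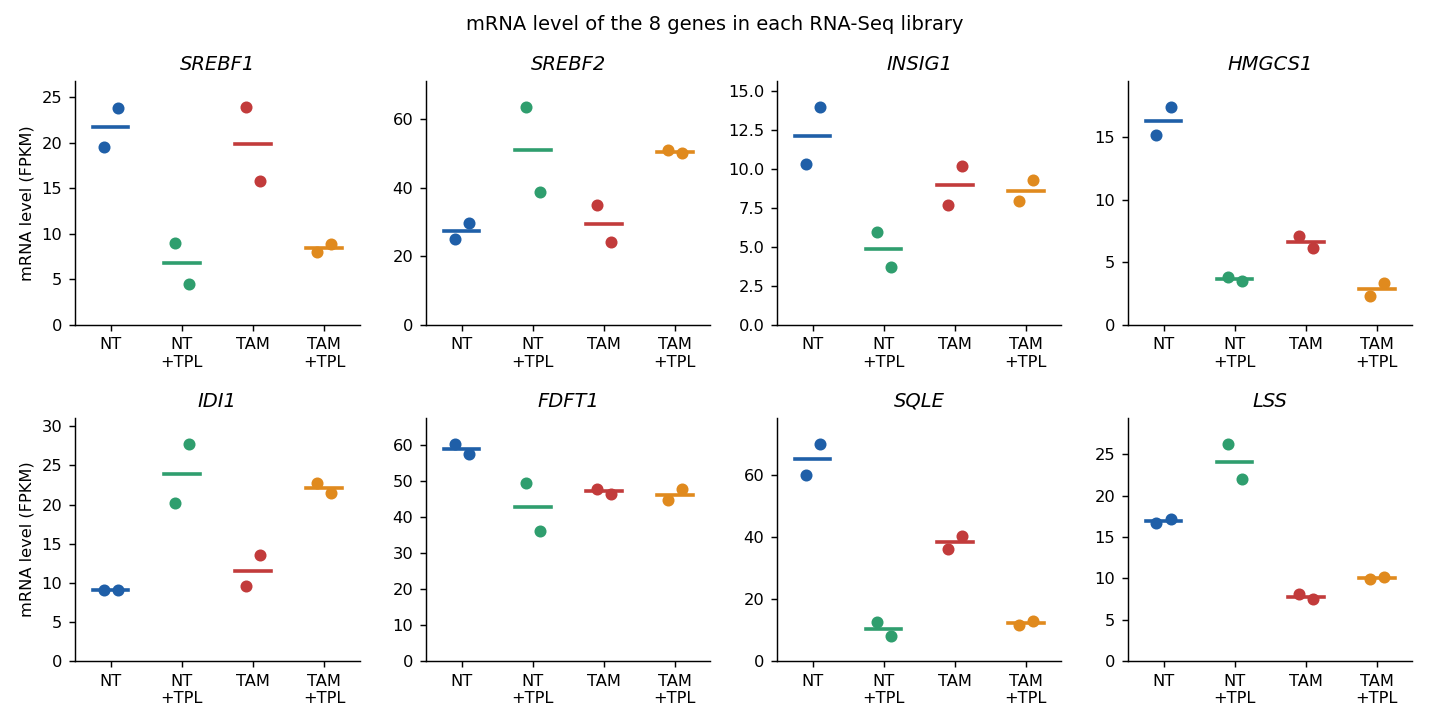
mRNA level in FPKM (vertical axis, linear from 0) of each of the 8 genes in the 8 libraries. Points are libraries, 2 per group, and the bar is their mean. With TPL, SREBF1, HMGCS1 and SQLE sit lower and SREBF2, IDI1 and LSS sit higher in both cell states.

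The 2 genes of the transcription factors moved in opposite directions. SREBF1, whose protein is best known for lipogenesis, was at 19.6 and 23.9 FPKM in NT cells, 8.93 and 4.53 in NT cells with TPL, 23.9 and 15.8 in TAM cells, and 7.94 and 8.86 in TAM cells with TPL. Every library with TPL was lower than every library without it, while NT and TAM cells overlapped both with DMSO and with TPL. The log2 fold change with TPL was -1.70 in NT cells (SE 0.325, adjusted p = 0.0079 by edgeR) and -1.28 in TAM cells (SE 0.321, adjusted p = 0.0227). The call in TAM cells was lost without TAM replicate 1 or either TAM library with TPL, where the values ran from -1.35 to -0.96.

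SREBF2, whose protein is the main activator of cholesterol synthesis genes, was at 25.2 and 29.7 FPKM in NT cells, 63.5 and 38.6 in NT cells with TPL, 34.9 and 24.1 in TAM cells, and 50.9 and 50.1 in TAM cells with TPL. All 4 libraries with TPL were above all 4 without, and the cell states overlapped. The log2 fold change was 0.88 in NT cells (SE 0.256, adjusted p = 0.0345 by edgeR) and 0.72 in TAM cells, where it did not pass (SE 0.255, adjusted p = 0.0675). The value in TAM cells passed in 5 of 13 other settings, among them DESeq2 (0.75, adjusted p = 0.00806), and without either NT library with TPL (adjusted p = 0.0306). The call in NT cells was lost when GAPDH was used to scale the libraries (log2 fold change 0.49, adjusted p = 0.203). It was also lost by edgeR on the NT libraries with and without TPL alone (0.89, adjusted p = 0.0671). The same held without 5 of the 8 libraries in turn, where the values ran from 0.52 to 0.99. With DMSO, SREBF2 was the more abundant of the pair by group mean, and by more with TPL.

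INSIG1, which retains the precursors in the endoplasmic reticulum, was at 10.3 and 14.0 FPKM in NT cells and 5.97 and 3.71 in NT cells with TPL. In TAM cells it was at 7.66 and 10.2 FPKM, and with TPL at 7.97 and 9.26. TPL put both NT libraries below the untreated ones, and the TAM libraries with and without TPL overlapped. The log2 fold change was -1.32 in NT cells (SE 0.27, adjusted p = 0.0101 by edgeR) and -0.13 in TAM cells (SE 0.263, adjusted p = 0.721). The difference between these effects was 1.19 (SE 0.376) and did not pass (adjusted p = 0.345). The call in NT cells was lost without NT replicate 2 (log2 fold change -1.09, adjusted p = 0.0621).

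**Figure D2:**
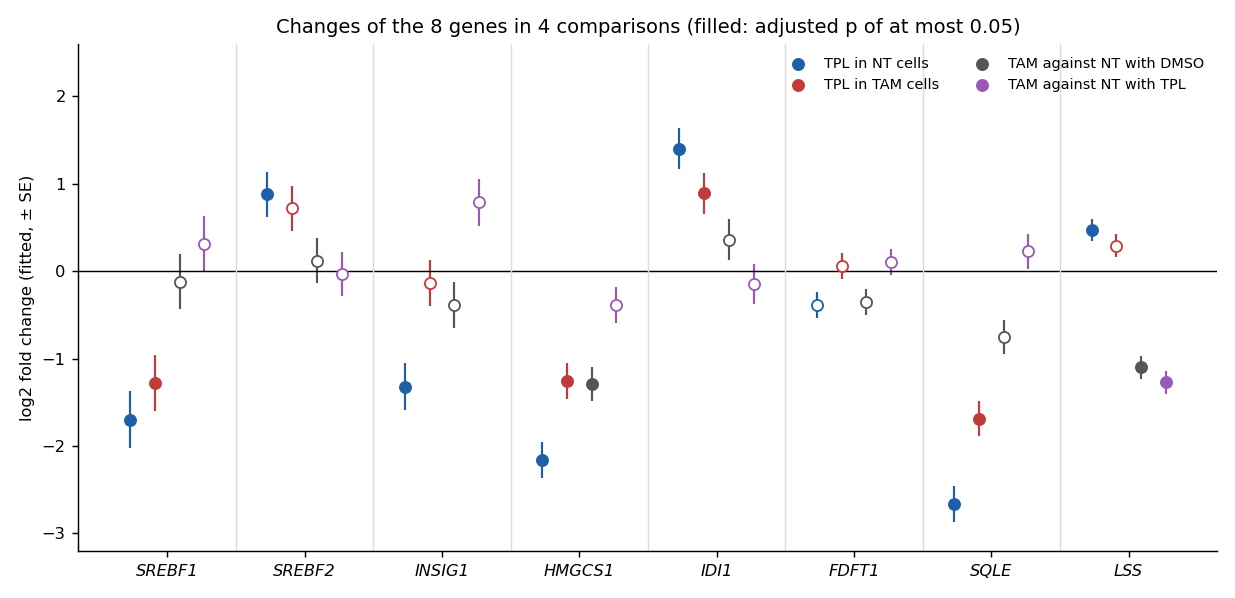
Fitted log2 fold change (vertical axis, ± SE) of each of the 8 genes in 4 comparisons, with filled points for an adjusted p of at most 0.05. With TPL in NT cells SQLE (-2.66) and HMGCS1 (-2.16) are the lowest points and IDI1 (1.4) is the highest.

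The 5 enzymes are taken in the order of the pathway. HMGCS1, the cytosolic HMG-CoA synthase of the early pathway, was at 15.2 and 17.4 FPKM in NT cells, 3.85 and 3.46 with TPL, 7.07 and 6.10 in TAM cells, and 2.30 and 3.35 in TAM cells with TPL. No 2 neighbouring groups in the order NT, TAM, NT with TPL and TAM with TPL overlapped. With TPL it fell by 2.16 on the log2 scale in NT cells (SE 0.205, adjusted p = 0.000638 by edgeR) and by 1.26 in TAM cells (SE 0.205, adjusted p = 0.0048).

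IDI1, the isopentenyl-diphosphate isomerase, was at 9.07 and 9.11 FPKM in NT cells, 20.2 and 27.8 with TPL, 9.65 and 13.5 in TAM cells, and 22.7 and 21.5 in TAM cells with TPL. All libraries with TPL were higher than all without. The log2 fold change was 1.4 in NT cells (SE 0.236, adjusted p = 0.00498 by edgeR) and 0.89 in TAM cells (SE 0.232, adjusted p = 0.0266). The call in TAM cells was lost with GAPDH scaling (0.76, adjusted p = 0.0798) and without TAM replicate 1 or either TAM library with TPL, where the values ran from 0.65 to 0.94.

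IDI1 alone of the 8 was listed under 5 entries, the gene ID row used above and 4 rows named by RefSeq transcripts, among which RSEM divides reads that fit more than 1 transcript. Summed over the 5 entries, the expected counts were 380 and 358 in NT cells, 1033 and 1220 with TPL, 343 and 340 in TAM cells, and 1048 and 1326 in TAM cells with TPL. Of these, NM_001317956 held 0 and 44.6 counts in NT cells and 384 and 383 with TPL, and 49.1 and 0 in TAM cells and 370 and 558 with TPL. Fitted on the sums, the log2 fold change with TPL was 1.69 in NT cells (SE 0.179, adjusted p = 2.77e-05 by edgeR), and the same fit gave 1.84 for TAM cells (SE 0.179, adjusted p = 2.05e-05). Both values were larger than those of the gene ID row alone.

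**Figure D3:**
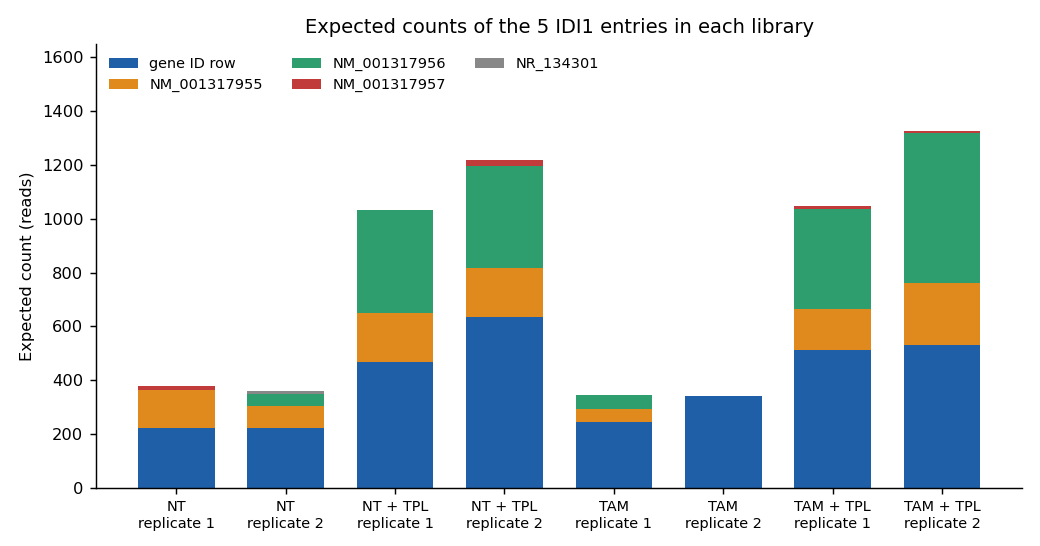
Expected counts (vertical axis, reads) of the 5 IDI1 entries, stacked, in each of the 8 libraries. The 4 libraries with TPL reach 1033 to 1326 and those without stay between 340 and 380, with the gene ID row and NM_001317956 holding most of the difference.

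FDFT1, the squalene synthase that commits the pathway to sterols, was at 60.3 and 57.6 FPKM in NT cells, 49.3 and 36.2 with TPL, 47.9 and 46.5 in TAM cells, and 44.6 and 47.7 in TAM cells with TPL. Its changes with TPL were the smallest of the 8 in both cell states. The NT libraries with TPL were below those without, and the TAM libraries overlapped. The log2 fold change was -0.39 in NT cells (SE 0.149, adjusted p = 0.0785 by edgeR) and 0.06 in TAM cells (SE 0.149, adjusted p = 0.77), and neither passed. The first passed when scaled to GAPDH (-0.76, adjusted p = 0.018), with DESeq2 and with limma on log2(FPKM + 1), and the second changed sign with GAPDH scaling and limma. The first also passed without NT with TPL replicate 1 (-0.59, adjusted p = 0.0165), and over the libraries left out it ran from -0.59 to -0.20.

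SQLE, the squalene epoxidase that catalyses the first oxygenation step, had the largest fall of the 8. It was at 60.1 and 70.1 FPKM in NT cells, 12.6 and 8.25 with TPL, 36.2 and 40.5 in TAM cells, and 11.7 and 12.9 in TAM cells with TPL. Every library with TPL was below every library without it. The log2 fold change was -2.66 in NT cells (SE 0.206, adjusted p = 0.000348 by edgeR) and -1.69 in TAM cells (SE 0.2, adjusted p = 0.00147). The effect was smaller in TAM cells by 0.97 (SE 0.277), which did not pass by edgeR (adjusted p = 0.296) and passed by DESeq2 (0.98, adjusted p = 0.0206).

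LSS, the lanosterol synthase that cyclises squalene epoxide to lanosterol, was at 16.7 and 17.2 FPKM in NT cells, 26.2 and 22.0 with TPL, 8.09 and 7.56 in TAM cells, and 9.91 and 10.2 in TAM cells with TPL. The 4 groups did not overlap, with TAM cells lowest. The rise with TPL was 0.47 in NT cells (SE 0.128, adjusted p = 0.0276 by edgeR) and the value in TAM cells was 0.29 (SE 0.131, adjusted p = 0.128). The rise in NT cells was lost with GAPDH scaling (0.10, adjusted p = 0.705) and without the filter on low counts (0.44, adjusted p = 0.0506). It was also lost by edgeR on the NT libraries with and without TPL alone (0.48, adjusted p = 0.0927). The same held without 7 of the 8 libraries in turn, where the values ran from 0.38 to 0.49.

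Between cell states, 2 of the 8 genes were lower in TAM than in NT cells with DMSO, where 3.39% of all genes were lower and 3.46% higher. HMGCS1 was lower by 1.29 on the log2 scale (SE 0.197, adjusted p = 0.0113 by edgeR) and LSS by 1.10 (SE 0.131, adjusted p = 0.00418). SQLE had a log2 fold change of -0.75 that did not pass (SE 0.192, adjusted p = 0.0718), although its libraries did not overlap. It passed in 5 of 13 other settings, among them DESeq2 (-0.72, adjusted p = 0.00235) and GAPDH scaling (-1.23, adjusted p = 0.0211), and without either NT library with TPL (adjusted p = 0.026 and 0.0255). In all, 5 of the 8 were lower in both TAM libraries and 1 was higher, where 28.7% and 24.0% of all genes were. The 1 higher was IDI1 on its gene ID row. Summed over its entries, IDI1 was at 15.6 and 14.6 FPKM in NT and 13.5 and 13.5 in TAM cells, so lower in TAM cells. The call for HMGCS1 was lost without any 1 of the 4 NT or TAM libraries with DMSO, with adjusted p-values from 0.0516 to 0.111, and that for LSS without TAM replicate 2 (adjusted p = 0.0565). With TPL, LSS alone was lower in TAM cells (log2 fold change -1.27, SE 0.13, adjusted p = 0.00244), where 4.21% of all genes were lower and 2.83% higher. HMGCS1 then differed by -0.39 (adjusted p = 0.343) and INSIG1 by 0.79 (adjusted p = 0.147). With TPL 2 of the 8 were lower in both TAM libraries and 1 was higher, where 23.8% of all genes were in each direction.

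Whether TPL acted differently in the 2 cell states was tested as the difference of its effects. None of the 8 genes passed, where 0.0885% of all genes passed upwards and 0.0767% downwards in edgeR, and 3 of them (INSIG1, HMGCS1 and SQLE) had an unadjusted p under 0.05, as 10.6% of all genes did. The study's own threshold was stricter, with an adjusted p up to 0.001 and a size of 1.2 or more on the log2 scale. Here these cut-offs were applied to the edgeR values and not to the study's own test. By its own processing the paper reports larger shares of genes changed with TPL in both states than the shares at these cut-offs that follow. HMGCS1 and SQLE were lower at these cut-offs with TPL in NT cells, where 2.71% of all genes were lower and 1.22% higher. None of the 8 met them with TPL in TAM cells (2.04% of all genes lower and 0.844% higher), between states with DMSO (0.277% and 0.378%) or between states with TPL (0.236% and 0.360%).

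The other enzymes of the pathway moved in both directions as well. Of 17 tested, 5 were higher and 7 lower with TPL in NT cells (median log2 fold change -0.47), and 4 were higher and 3 lower in TAM cells (median -0.14). Over all genes 17.2% were higher and 19.8% lower in NT cells, and 14.3% and 18.6% in TAM cells, so the count lower in TAM cells is near the share of all genes. TM7SF2 and LBR, which both encode C14 sterol reductases, moved apart. TM7SF2 rose by 2.54 in NT cells (adjusted p = 0.000458 by edgeR) and 2.70 in TAM cells (adjusted p = 0.000472), and LBR had log2 fold changes of -2.42 (adjusted p = 0.00113) and -2.39 (adjusted p = 0.00119). Mevalonate kinase, MVK, had -1.71 (adjusted p = 0.00295) and -1.62 (adjusted p = 0.00394). HSD17B7, a 3-ketosteroid reductase, had 3.07 (adjusted p = 0.000524) in NT cells and 0.30 (adjusted p = 0.368) in TAM cells, and with DMSO it was higher in TAM than in NT cells by 2.58 (adjusted p = 0.00245). Its difference of effects was -2.77 (SE 0.357) and did not pass (adjusted p = 0.0523 by edgeR). The NT libraries with DMSO held 39.2 and 31.1 expected counts of HSD17B7. GGPS1, of the branch to geranylgeranyl diphosphate, had 0.97 in NT cells (adjusted p = 0.00286) and 0.76 in TAM cells (adjusted p = 0.00806).

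**Figure D4:**
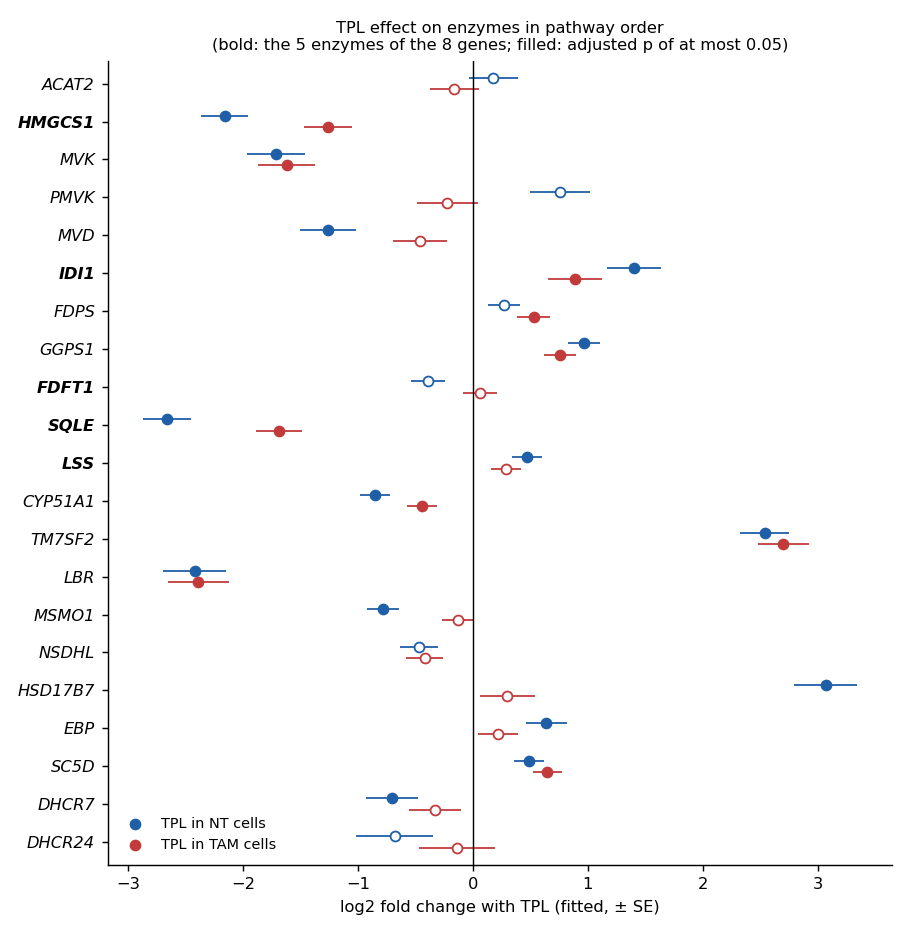
Fitted log2 fold change with TPL (horizontal axis, ± SE) of enzymes from top to bottom in pathway order, in NT and TAM cells, with filled points for an adjusted p of at most 0.05. Falls (HMGCS1, MVK, SQLE, LBR) and rises (IDI1, GGPS1, TM7SF2) stand side by side along the pathway.

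Of the 12 genes of SREBP processing, 3 were lower and none higher in NT cells (median 0.18), and 2 were lower and 3 higher in TAM cells (median 0.21). The counts lower are near the shares of all genes (19.8% in NT and 18.6% in TAM cells), and 17.2% and 14.3% of all genes were higher. RNF145, a ubiquitin ligase, was at -1.49 (adjusted p = 0.00265) and -1.51 (adjusted p = 0.00273). INSIG2, the partner of INSIG1, was at -1.51 (adjusted p = 0.0374) in NT and -0.65 (adjusted p = 0.285) in TAM cells. SCAP, the escort of the precursors, was at 0.02 (adjusted p = 0.983) and 0.45 (adjusted p = 0.399), and its reads are also split over several entries. MBTPS1, the site-1 protease, was at 0.36 in NT cells (adjusted p = 0.0678 by edgeR) and 0.47 in TAM cells (adjusted p = 0.0335). SPRING1, which supports it, was at 0.36 in NT cells (adjusted p = 0.114) and 0.81 in TAM cells (adjusted p = 0.00918).

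Of 7 genes of uptake and transport tested, 1 was higher and 2 lower in NT cells and 1 was higher and 1 lower in TAM cells, few genes beside shares of all genes of 17.2% higher and 19.8% lower in NT and 14.3% and 18.6% in TAM cells. LRP8, a lipoprotein receptor, was at -2.95 (adjusted p = 0.000554 by edgeR) and -1.02 (adjusted p = 0.0191). Among 12 fatty acid synthesis genes 3 were higher and 3 lower in NT cells and 2 were higher in TAM cells, read against the same shares. ACSS2 was at 1.47 (adjusted p = 0.000662) and 1.03 (adjusted p = 0.00246), and LPIN1 at 1.68 (adjusted p = 0.00067) and 1.56 (adjusted p = 0.00107). ACLY was at -1.21 in NT cells (adjusted p = 0.00508) and -0.60 in TAM cells (adjusted p = 0.0597). GPAM was at -1.80 in NT cells (adjusted p = 0.00525) and -0.59 in TAM cells (adjusted p = 0.163). Of 6 tested genes of LXR targets and efflux, MYLIP, a ubiquitin ligase, was alone in passing with TPL. It was at 4.41 in NT cells (adjusted p = 0.000195 by edgeR) and 4.33 in TAM cells (adjusted p = 0.000276). This count of 1 in 6 is near the shares of all genes higher, 17.2% and 14.3%. With DMSO, MYLIP held 17 and 14 expected counts in NT cells and 8 and 11 in TAM cells. Of the reference genes, GAPDH was at 0.35 (adjusted p = 0.0875) and 0.12 (adjusted p = 0.516), and ACTB at -1.42 (adjusted p = 0.00105) and -1.0 (adjusted p = 0.0041).

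The 5 enzymes did not move together. Over the 8 libraries their Pearson r with their own mean was 0.862 for HMGCS1, 0.814 for FDFT1, 0.69 for SQLE, 0.513 for LSS and -0.65 for IDI1. The pairs with the strongest relations in either sign were SREBF1 with IDI1 (r = -0.979) and SQLE with IDI1 (r = -0.968), and SREBF1 with SQLE had r = 0.941. These 8 libraries form 4 groups, so the values describe the groups. The genes whose level was most like the mean of the enzymes among 13156 compared were SMURF1 (r = 0.996), INPP5E (0.986), KRT13 (0.984), C1orf116 (0.977) and MICAL2 (0.977). Those most like INSIG1 were MAP4K3 (0.973), GART (0.968) and ABHD13 (0.962). All were picked as the highest of 13156 genes over 8 libraries, so high r values come with the choice. Shared control of these genes was not tested.

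RNAPII was listed over the TSS of nearly all 8 genes in each group. The TSS lay inside a listed peak for 8 genes in NT cells, 7 in NT cells with TPL, 7 in TAM cells and 7 in TAM cells with TPL, where 47.7%, 38.2%, 42.1% and 37.4% of protein-coding genes had one. It lay inside a peak in all 4 lists for 6 of the 8, where 31.5% of genes did. These shares count all protein-coding genes whatever their expression. The 8 genes lay between percentiles 59.8 and 91.9 of mean FPKM among tested genes. The peaks have no score or replicate value in the lists, so no test was made, and peak names in the TAM list carry a q of 0.1 where those of the others carry a cutoff of 0.02. The TAM list also had narrower peaks, with a median of 406 bases against 632, 553 and 455 in NT, NT with TPL and TAM with TPL. In the TAM list alone, 4584 of 11056 peak names end in a letter. A second peak lay within 1000 bases of the TSS of SQLE, FDFT1 and SREBF2 in the TAM list. The same held for SREBF2, HMGCS1 and LSS in the NT list and for LSS in NT with TPL. Whether the widths in the TAM list belong to parts of divided peaks was not tested.

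At SREBF1 a peak of 1142 bases, chr17:17739373-17740514, held the TSS in NT cells, and one of 848 bases, chr17:17739549-17740396, in TAM cells. With TPL the peaks were of 248 bases (chr17:17739588-17739835) and 298 bases (chr17:17739554-17739851), both inside the gene with their nearest edge 465 and 449 bases from the TSS. Loss of a listed peak over the TSS with TPL was found for 22.9% of the genes with one in NT cells and 19.1% in TAM cells. Judged by the canonical TSS, SREBF1 was the only one of the 8 to lose it in either state. SREBF1 has 24 annotated TSSs, and with TPL a peak stayed within 1000 bases of the canonical one in both states. Which TSS annotation the authors used for their lists is not given in the sources used here. At LSS the TAM list held the nearest peak 406 bases upstream (chr21:47649094-47649335), and the other lists covered the TSS, in TAM cells with TPL by a peak of 157 bases.

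At the other genes the TSS stayed inside a peak in all 4 lists and widths changed. At IDI1 the peak was 1184 bases wide in NT cells, 2197 with TPL (chr10:1093666-1095862), 905 in TAM cells and 1180 in TAM cells with TPL, and the peak in NT cells with TPL was wider than 97.7% of that list. At SQLE the widths were 1514, 689, 245 and 276 bases in the same order, and at INSIG1 1394, 616, 840 and 505. At HMGCS1 they were 571, 432, 292 and 338, and at SREBF2 693, 761, 293 and 818. FDFT1 had 1599, 764, 395 and 684. Whether peak width goes with mRNA level was not tested.

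**Figure D5:**
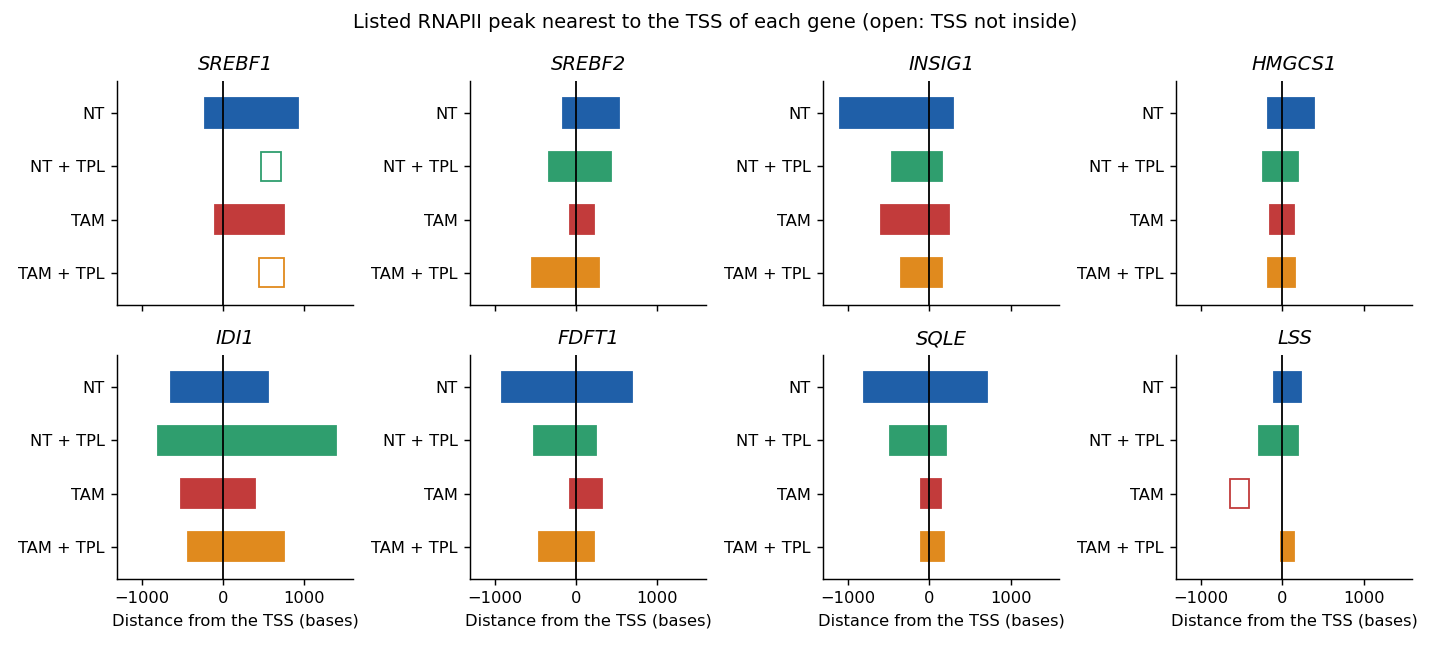
Extent of the listed RNAPII peak over or nearest to the TSS of each gene in each group (horizontal axis, distance from the TSS in bases, with positive values inside the gene). Open bars do not hold the TSS, as at SREBF1 with TPL in both states and at LSS in TAM cells.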

How the data were processed

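RNA-Seq (poly-A, 8 libraries) and RNAPII ChIP-Seq (8 samples and 2 inputs, 4 peak lists) were analysed. The authors aligned RNA reads with Bowtie2 and deposited RSEM expected counts and FPKM per gene, and the deposited peak lists, called with MACS 1.4.2 and annotated with HOMER, hold hg19 intervals without scores. Peak names carry only first-replicate tags, so whether replicates were pooled is not given in the sources used here. The rounded expected counts went into edgeR 4.0.16 (TMM, filterByExpr, 4 groups in 1 fit without a replicate term, quasi-likelihood test, Benjamini-Hochberg over 16948 genes). An SE is the log2 fold change divided by the root of F. FPKM served as levels, and likeness used log2(FPKM + 1) over genes with a mean of at least 1 FPKM. DESeq2 1.42.0 and limma 3.58.1 were alternatives. Depth was 7461309 to 8349448 counts, and 2 libraries per group limit precision. Entries were named by gene ID (21077) or RefSeq accession (2384), with 143 unmatched. The 2 libraries of a group were not duplicates: they differed by a mean chi-square per gene of 9.94 to 33.1. Libraries of different groups were not compared in this way. TSSs came from GENCODE 44 mapped to GRCh37. Named genes were all 8, the 2 genes with the smallest adjusted p in each direction of each list and TPL comparison, and SCAP, INSIG2, FASN, SCD, ABCA1, GAPDH and ACTB, and some genes that this rule names are not reported here. The scripts were tested on simulated data. The members and lists were chosen with earlier results of these data known.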

Additional observations from a re-analysis of the deposited data

Results flagged for a closer look

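ABCA1, the cholesterol efflux transporter, was listed at 0 and 1 counts in NT cells and 3 and 4 with TPL, and at 78 and 91 counts in TAM cells and 29 and 38 with TPL, so both NT libraries moved up and both TAM libraries moved down. The difference between the fitted effects was -3.91 (SE 0.979) and did not pass (adjusted p = 0.247 by edgeR), and the NT values rest on 4 counts or fewer. With 2 libraries per group, no gap test of a single library against its own group was made.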

How the results depend on the processing

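Each library was left out in turn, and 13 other settings were tried. Over the left-out libraries the genes of the 8 that passed numbered 4 to 7 for TPL in NT cells, 2 to 5 for TPL in TAM cells, 0 to 3 for TAM against NT cells with DMSO, 1 with TPL and 0 for the difference of effects, where a lone library was assumed to vary like the other groups. Of the 320 values that these 8 refits gave for the genes, 11 changed sign, all of them values that had not passed. Between states with DMSO SREBF1 ran from -0.45 to 0.15 and SREBF2 from -0.16 to 0.36. Between states with TPL SREBF1 ran from -0.06 to 0.87, SREBF2 from -0.30 to 0.36, IDI1 from -0.35 to 0.16 and FDFT1 from -0.05 to 0.34. INSIG1 with TPL in TAM cells ran from -0.31 to 0.05, and the difference of effects for SREBF2 from -0.45 to 0.21. At the study's threshold, applied to the edgeR values, 2, 0, 0 and 0 genes passed in the 4 comparisons. DESeq2 passed 2 between states with TPL and 1 for the difference of effects, and over all genes it called 275 and 244 differences of effects against 15 and 13 in edgeR. GAPDH scaling passed 4 between states with DMSO, where it moved the median of all genes to -0.50 and the genes lower from 574 to 1687. It moved the median of all genes to -0.26 for TPL in NT cells, with 1358 genes higher and 4381 lower against 2919 and 3355, and upper quartile scaling moved it to 0.31, with 4088 and 2625.

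Signs changed, again only in values that had not passed, for SREBF2 between states with TPL under DESeq2 (0.00), DESeq2 size factors (0.00), upper quartile (0.03) and limma with either pseudocount (0.03). They changed for INSIG1 with TPL in TAM cells under upper quartile (0.11) and for FDFT1 there under GAPDH (-0.06) and limma (-0.03). Under GAPDH scaling they changed between states for SREBF2 (-0.36) and IDI1 (-0.11) with DMSO and FDFT1 (-0.11) with TPL, and for the difference of effects in SREBF2 (0.11) and LSS (0.07). With the IDI1 entries summed, its values became -0.14 between states with DMSO and 0.14 for the difference of effects. A peak covering 100 bases on each side of the TSS was listed for 4 genes in TAM cells. The cause of these changes was not tested. The replicate numbers share no stated batch, and the correlations of replicate differences were -0.197, -0.0474, -0.0799 and 0.0332. With the number as a replicate block the pairing left 7, 4, 2, 1 and 0 genes passing.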

Other observations

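FASN, the fatty acid synthase, had log2 fold changes with TPL of -0.47 in NT (adjusted p = 0.167 by edgeR) and -0.13 in TAM cells (adjusted p = 0.697), and SCD, the stearoyl-CoA desaturase, of -0.70 (adjusted p = 0.174) and 0.42 (adjusted p = 0.409). NPC2 and NPC1 encode proteins that move cholesterol out of lysosomes. NPC2 was at 1.07 in NT cells (adjusted p = 0.00225 by edgeR) and 0.33 in TAM cells (adjusted p = 0.124). NPC1 was at 1.01 in NT cells (adjusted p = 0.0619) and 1.25 in TAM cells (adjusted p = 0.0323). The difference of effects did not pass for NPC2 (adjusted p = 0.285) or NPC1 (adjusted p = 0.908).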
